A study of Homo sapiens with 2 samples.

Results

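The CPEB proteins and the factors that lengthen, shorten or guard poly(A) tails with them were examined in HCT116, a human colorectal cancer cell line. The members are CPEB1, CPEB2, CPEB3, CPEB4, TENT2, PARN, SYMPK, EIF4ENIF1, PAPOLA and CPSF1, chosen by name, with earlier results of these data known. Every probe set, that is, every group of probes on the array that reads 1 transcript region, was taken if the platform annotation pairs it with 1 of these 10 genes alone. That gave 30 probe sets out of the 54675 on the array, and all 10 genes had at least 1. A further 2 probe sets that the annotation pairs with a member and other genes together were not used.

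Total RNA of 2 cultures was hybridised, 1 array for each. The first, HCT116-GFP, is described in its labels as wild type. The second, HCT116-CPEB4, is described as over-expressing CPEB4, introduced with a lentivirus. Both were grown in the same serum-containing RPMI-1640 medium. The promoter of the CPEB4 vector, the extent of the introduced sequence, whether HCT116-CPEB4 is 1 clone or a pool, and whether the GFP line had its own vector are not given in these sources. With 1 array a group there is no replicate check and no test, and each difference below describes these 2 arrays only. Fewer cells of a kind and less RNA per cell cannot be told apart in such bulk RNA.

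CPEB proteins bind U-rich cytoplasmic polyadenylation elements in the 3′ ends of mRNAs. In the classical account from oocytes, CPEB1 holds the poly(A) polymerase TENT2 (GLD-2) and the deadenylase PARN on the same mRNA through the scaffold SYMPK (symplekin) and the cleavage and polyadenylation specificity factor, of which CPSF1 is a subunit. While PARN acts the tail stays short, and a repressor such as EIF4ENIF1 (4E-T), which binds the cap-binding protein eIF4E, keeps the mRNA silent. Phosphorylation of CPEB1 releases PARN, and TENT2 then extends the tail. PAPOLA is the canonical nuclear poly(A) polymerase, which adds the first tail to most mRNAs. The array reads the abundance of these genes' own mRNAs, and not tail length, translation or protein.

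Values are the deposited linear intensities, in arbitrary units. A difference is the log2 intensity on the array labelled HCT116-CPEB4 minus that on the array labelled HCT116-GFP. Probe sets whose brighter array read at least 60.8, the 50th percentile over both arrays together, were kept, and this limit is called the dim filter. Of the 30 member probe sets, 22 were kept and 8 were not. The kept ones include 2 that reached the filter on the HCT116-GFP array alone. A gene took the value of its brightest kept probe set, and a difference of 2-fold or more was counted as higher or lower, by size alone. The labelled tissue was checked against marker genes. All 8 colon epithelial markers had a kept probe set, with EPCAM at 20994 and 20717, KRT18 at 27353 and 28606, and KRT19 at 28546 and 28311. The intestinal markers among them were dim, with CDX2 at 103 and 120 and VIL1 at 32.2 and 77.0, and the other kept probe set of VIL1 differed by −5.60. Of the marker genes on the array, 0 of 3 for blood and immune cells had a kept probe set. Among fibroblast markers 2 of 5 did, COL1A1 at 949 and 1292 and DCN at 43.2 and 102, a difference of 1.23. The kept probe sets of COL1A1 ran from −3.05 to 0.63. These DCN and VIL1 values reached the filter on the HCT116-CPEB4 array alone, so they had to be higher there to be kept. Of 4 endothelial markers 1 had a kept probe set, PECAM1 at 150 and 95.0. Their part in the members' values was not tested.

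CPEB4 did not read higher on the array labelled HCT116-CPEB4 at any of its 4 probe sets. Its brightest, 224831_at, gave 731 for HCT116-GFP and 628 for the array labelled HCT116-CPEB4, a difference of −0.22. The second, 224829_at, read 758 and 558, a difference of −0.44. Both stood at percentiles between 79.2 and 82.5 of all probe sets on their arrays, so CPEB4 mRNA was read well above the dim filter in both cultures.

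The other probe sets of CPEB4 had the same sign. 224828_at read 183 and 174, a difference of −0.08, and 242280_x_at, which just missed the filter, read 60.1 and 21.0. The annotation gives an accession for each of the 4 probe sets, and for none is it that of a RefSeq mRNA. By prefix alone all 4 were classed here as expressed sequence tags, single-pass reads of a cDNA end. The annotation itself does not name the class. No source used here says whether any of them lies in the introduced sequence, so these values may not check the vector at all. The second array is called by its label throughout for this reason.

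CPEB2, a close relative of CPEB4 in its RNA-binding part, was lower at both of its kept probe sets. 226939_at read 408 and 277, a difference of −0.56 or 1.47-fold, and 235479_at read 99.1 and 69.4, a difference of −0.51. These 2 differed from each other by 0.05. The third, 235462_at, went the other way below the filter, at 32.4 and 48.4.

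CPEB3, which belongs to the same subgroup as CPEB2 and CPEB4, gave no single direction over its 4 probe sets. Its brightest, 205773_at, was designed on a RefSeq mRNA and read 218 and 161, a difference of −0.43. 1555250_a_at read 90.6 and 87.0, nearly level at −0.06. 239765_at read higher on the array labelled HCT116-CPEB4, at 64.5 against 110 (0.78). 243651_at read 73.2 and 21.5, a difference of −1.76 and the 1 kept member probe set past 2-fold, but it reached the filter only on the HCT116-GFP array, so it had to differ to be kept.

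CPEB1, the founding member of the family, was dim on both arrays. 222903_s_at read 51.9 and 36.8, and 219578_s_at read 7.14 and 12.1. The 2 probe sets had opposite signs, and neither reached the filter, so no direction is given for CPEB1.

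**Figure D1:**
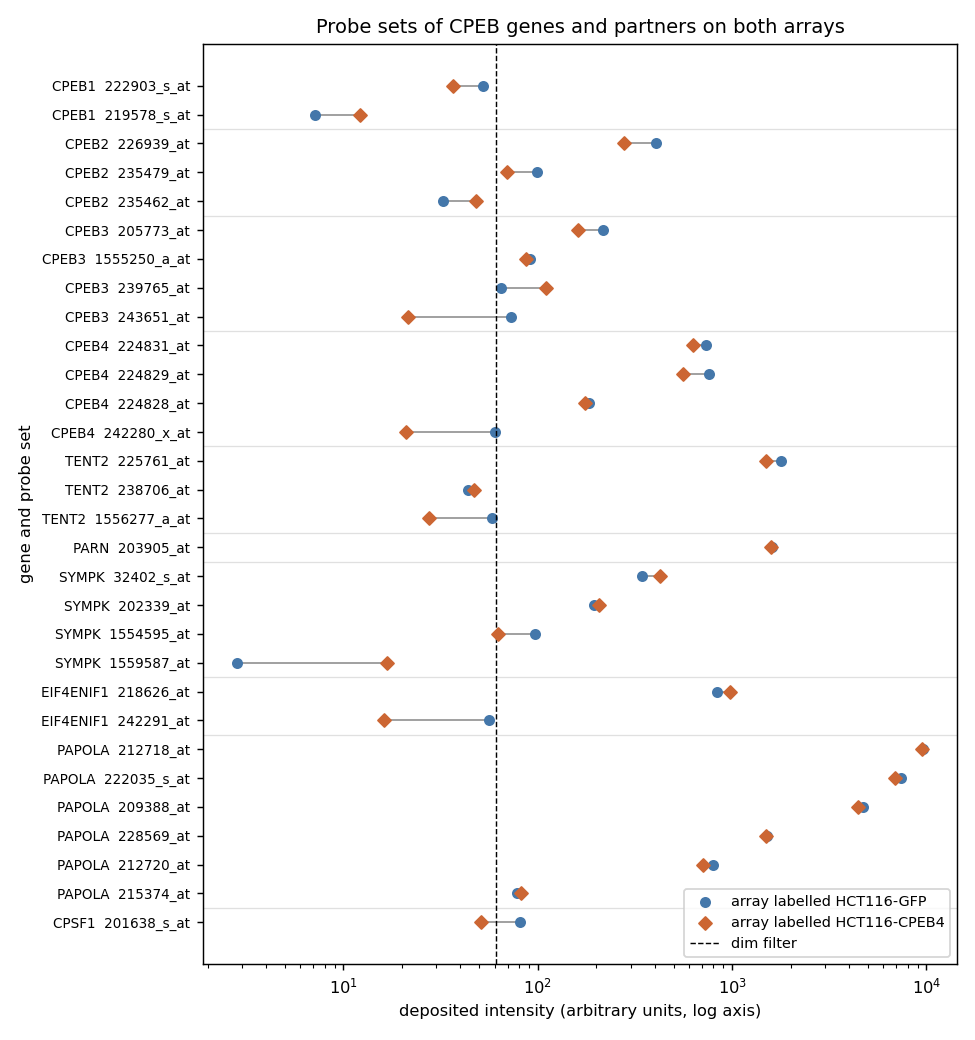
Deposited intensity of each of the 30 member probe sets on the array labelled HCT116-GFP (circles) and the array labelled HCT116-CPEB4 (diamonds), on a log axis, with 1 row for each probe set and a dashed line at the dim filter of 60.8. The 4 CPEB4 rows all have the diamond to the left of the circle, the 6 PAPOLA pairs nearly coincide, and the gaps wider than 2-fold all have at least 1 end below the dashed line.

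Among the enzymes, the poly(A) polymerase TENT2 was slightly lower and the deadenylase PARN nearly level. TENT2 read 1784 and 1489 at 225761_at, a difference of −0.26 or 1.20-fold. Its remaining probe sets were under the filter, with 238706_at at 43.9 and 47.0 and 1556277_a_at at 58.3 and 27.5. PARN, which removes tails and opposes TENT2, has 1 probe set, 203905_at, which read 1611 and 1582, a difference of −0.03.

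PAPOLA was the most completely measured member, with all 6 of its probe sets kept. Its brightest, 212718_at, read 9619 and 9511, a difference of −0.02. 222035_s_at read 7369 and 6911, and 209388_at read 4709 and 4445. Among the weaker signals, 228569_at read 1517 and 1488, 212720_at read 799 and 707, and 215374_at read 78.1 and 82.2. The 6 differences ran from −0.18 to 0.08, so PAPOLA differed by no more than 1.13-fold wherever it was read. After loess normalization its brightest probe set stood at 0.01, so no direction is given for it.

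The scaffold and the repressor were the members with a brightest probe set above 0. SYMPK read 343 and 423 at 32402_s_at, a difference of 0.30, and 195 and 207 at 202339_at (0.08). The next probe set, 1554595_at, read 97.1 and 62.1, a difference of −0.64. The mean over the 3 kept probe sets of SYMPK was −0.09, so its direction is not settled. The last, 1559587_at, read 2.83 and 16.7. Its 5.90-fold ratio lay wholly under the filter.

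EIF4ENIF1, the eIF4E-binding protein that holds mRNAs in a repressed state, read 832 and 973 at 218626_at, a difference of 0.23 or 1.17-fold. Its other probe set, 242291_at, read 56.2 and 16.1, below the filter and in the opposite direction. CPSF1 has 1 probe set that is paired with it alone, 201638_s_at, which read 80.7 and 51.0. This difference of −0.66 was the lowest among the 9 member genes measured, and its second value was under the filter, so CPSF1 dropped out when both arrays had to reach it.

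Of the 22 kept member probe sets, 1 was lower by 2-fold or more and 0 were higher. Over all kept probe sets with 1 gene, 4.48% were lower and 4.6% higher by that much, so the members' share was near the background. Of the 20 member probe sets with both arrays at or above the filter, 0 passed 2-fold in either direction, against 1.52% of all such probe sets. Among the 9 measured member genes 0 passed, against 7.4% of all 13704 genes. Among the 8 with both arrays at the filter 0 passed, where 89 of 12130 genes were higher and 70 lower. Without the filter, 4 of the 30 member probe sets were lower and 1 higher by 2-fold, where 11.8% and 11.2% of all probe sets were. Apart from CPEB3 243651_at, those were under the filter on both arrays.

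Below 0 lay 17 of the 22 kept probe sets, against 49.6% of all kept probe sets, but CPEB3 243651_at and CPSF1 201638_s_at could be kept only by lying there. Of the 20 with both arrays at or above the filter, 15 lay below 0, again against 49.6% of all such probe sets, with a median of −0.08 against 0.00. The CPEB genes had 7 of 8 such probe sets below 0 and a median of −0.33. By gene, 7 of 9 lay below 0 (all genes 49.9%), with a median of −0.22 against 0.00 over all genes. That median was −0.12 with both arrays at the filter, where 6 of 8 genes lay below 0, −0.12 without probe sets ending in _s_at, _x_at or _a_at, and −0.03 under the 75th percentile filter, so its size was not stable. Probe sets of 1 gene read the same RNA and are not independent, so the probe set counts rest on few genes.

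The size of each difference can be set beside that of other probe sets of like brightness. Kept probe sets were divided by mean log2 intensity into 10 equal groups. The central 90% of differences ran from −3.11 to 3.03 in the dimmest group, from −0.65 to 0.77 in the fourth, from −0.45 to 0.52 in the seventh and from −0.35 to 0.33 in the brightest. All 22 member probe sets lay inside the central 90% of their own group. The closest to an edge were CPEB4 224829_at, at −0.44 with the edge at −0.45, and CPEB2 226939_at, at −0.56 with the edge at −0.58.

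**Figure D2:**
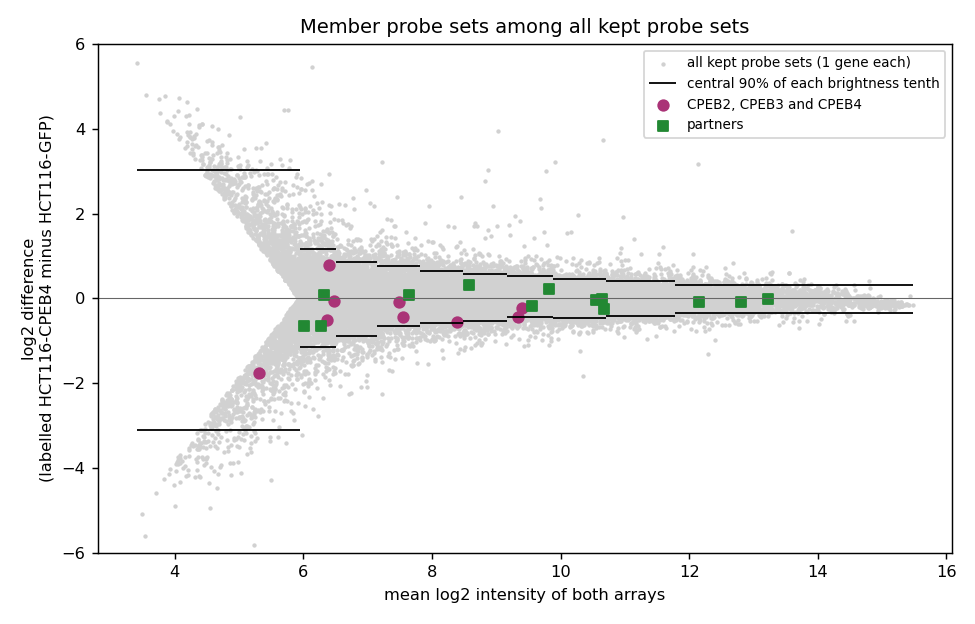
Log2 difference (array labelled HCT116-CPEB4 minus array labelled HCT116-GFP) against mean log2 intensity for 25010 kept probe sets (grey), with black lines at the central 90% of each of 10 brightness groups. The 9 CPEB probe sets (circles) and 13 partner probe sets (squares) all lie between the lines, and the empty wedge at the left is made by the dim filter.

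Agreement between probe sets of 1 gene gave a measure of probe set disagreement alone. Such probe sets read the same 2 RNA samples on the same 2 arrays. Their gap therefore holds no variation between cultures or arrays. The gap between the differences of a gene's 2 brightest kept probe sets had a median of 0.27 over 6520 genes, and 41.1% of those genes had opposite signs. The 5 member genes with such a pair had a median gap of 0.22 and 0 pairs with opposite signs. The gap was 0.05 for CPEB2, 0.08 for PAPOLA, 0.22 for CPEB4 and SYMPK, and 0.37 for CPEB3. The differences of CPEB4 (−0.22), TENT2 (−0.26) and EIF4ENIF1 (0.23) were thus smaller than the usual disagreement between probe sets. Those of CPEB2 (−0.56), CPEB3 (−0.43) and SYMPK (0.30) were larger, though inside the central 90% of their brightness groups. The usual gap pools bright and dim genes, and passing it does not show a difference between the cultures. The difference of CPSF1 is left out here, since the filter partly fixed it.

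**Figure D3:**
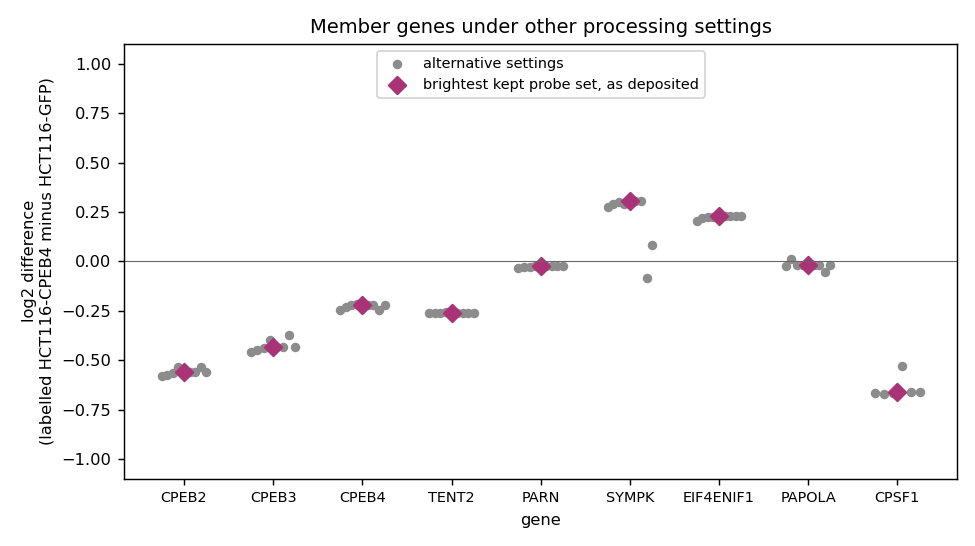
Log2 difference of the 9 measured member genes as deposited, at the brightest kept probe set (diamonds), and under the other processing settings (grey points). As plotted, the points of CPEB2, CPEB3, CPEB4, TENT2, PARN and CPSF1 lie below 0 and those of EIF4ENIF1 above. SYMPK and PAPOLA have points on both sides. The other filters read the same brightest probe set where it was kept, so those points could not change sign. Single probe sets could differ, as CPEB3 239765_at did at 0.78.

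Few related genes of the pathway passed 2-fold at their brightest kept probe set. The gene lists were drawn from general knowledge with earlier results of these data known. Dimmer kept probe sets of some listed genes did pass 2-fold, such as those of RBBP6 at −1.11, TUT7 at −1.34 and PABPC1L at 1.19. Of 16 measured nuclear cleavage and polyadenylation factors, 0 passed 2-fold, with 9 above 0, 7 below and a median of 0.03. NUDT21, a cleavage factor subunit that helps choose the poly(A) site, read 7560 and 7185. Its partner CPSF6 read 4565 and 4733, and the phosphatase SSU72 read 5704 and 6548. With probe sets averaged, CPSF6 turned to −0.09 and SSU72 to −0.10, so neither has a settled direction. The members farthest from 0, picked after their values were seen, were CSTF3 at −0.96, with its 3 probe sets running up to 0.53, and the nuclear poly(A)-binding protein PABPN1 at 204 and 111 (−0.88). Averaging the probe sets of each gene put the list median at −0.09, so its sign is not settled.

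Other poly(A) and nucleotidyl transferases, the relatives of TENT2, divided evenly. Of 10 genes, 0 passed 2-fold, 5 lay above 0 and 5 below, and the median was 0.04 (from −0.02 to 0.05 over the settings). TENT5A read 2071 and 3115, a difference of 0.59. The mitochondrial poly(A) polymerase MTPAP read 3910 and 4677, and TENT4B read 2046 and 1919. MTPAP stood at −0.01 without probe sets shared between transcripts and TENT4B at 0.00 with probe sets averaged, so their directions are not settled. Of 7 measured poly(A)-binding proteins and partners, 0 passed 2-fold and the median was −0.05. PABPC1, the main cytoplasmic poly(A)-binding protein, read 34029 and 29770, a difference of −0.19 that was −0.06 after quantile normalization. PABPC3 read 34293 and 33178. Both values come from probe sets marked for possible cross-hybridisation, so these near-identical genes may share signal, and the sign of PABPC3 turned after quantile and loess normalization. PAIP2, an inhibitor of poly(A)-binding protein, read 10351 and 10067.

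Among cap-binding and repressor partners of CPEB complexes, 1 of 12 genes passed 2-fold. This was ZAR1, an oocyte RNA-binding protein, at 137 and 52.4, with the second value under the filter. At their brightest kept probe sets the others lay between −0.27 and 0.25. In the list 6 were above 0 and 6 below, with a median of 0.01, which was −0.16 with probe sets averaged. Other kept probe sets lay farther from 0, at −3.62 for TOB2, −3.14 for PATL1, −1.44 for LSM14B and 0.92 for EIF4EBP2. The cap-binding protein EIF4E read 5739 and 5946, although its 4 kept probe sets ran from −0.67 to 0.64. The deadenylase CNOT7 read 9349 and 9674 (0.05), and TOB1, which links CPEB3 to that deadenylase, read 9563 and 8808.

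Kinases and ubiquitin factors that act on CPEB proteins gave 0 of 8 genes past 2-fold at the brightest kept probe set. Their median of 0.10 ran from −0.40 to 0.11 over the processing settings, so its sign is not settled. At other kept probe sets NEURL1 stood at 1.74 and BTRC at −1.56. AURKA, reported to phosphorylate CPEB1 in oocytes, read 4095 and 4745, a difference of 0.21. CDK1, which marks CPEB1 for degradation in oocytes, read 15128 and 10359 (−0.55), with 0.14 at another of its 4 probe sets. With its probe sets averaged CDK1 stood at −0.12. CAMK2D read 6444 and 5802.

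Proteins that bind 3′ untranslated regions alongside CPEB proteins all lay below 0 at their brightest kept probe set. Of 6 measured genes, 0 passed 2-fold, and the median was −0.26 (from −0.31 to −0.22 over the settings), where 49.9% of all genes lay below 0. MSI2, a Musashi protein, read 4069 and 3380, with its 7 kept probe sets running from −0.34 to 0.26. ELAVL1 (HuR) read 6875 and 6564, with a kept probe set at −0.90 and a mean over probe sets of −0.38. ZFP36L1, a decay factor, read 7318 and 5715 (−0.36) but 0.19 at another probe set. Without probe sets ending in _s_at, _x_at or _a_at it stood at 0.19, so the shared direction did not hold there. MSI1 and DAZL, found in stem and germ cells, had no kept probe set.

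Transcripts described elsewhere as bound by CPEB proteins gave 0 of 13 measured genes past 2-fold, with 7 above 0, 6 below and a median of 0.01. That median ran from −0.08 to 0.08 over the settings and was below 0 after quantile and loess normalization. These counts rest on the brightest kept probe set, and another kept probe set of EGFR stood at 1.87. The mitotic cyclins CCNB1 and CCNB2 read 7444 and 8695, and 6564 and 5727, with −0.16 at the other probe set of CCNB1. The ER chaperone HSPA5 read 20278 and 23551, a difference of 0.22. In the lists beside the members' own, ZAR1 was the 1 gene past 2-fold among 72 measured, where 7.4% of all genes were. With both arrays at the filter ZAR1 was not kept, and 89 of 12130 genes were higher and 70 lower. The listed genes were not matched in brightness to all genes, so these shares do not show whether the lists differ from the background.

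**Figure D4:**
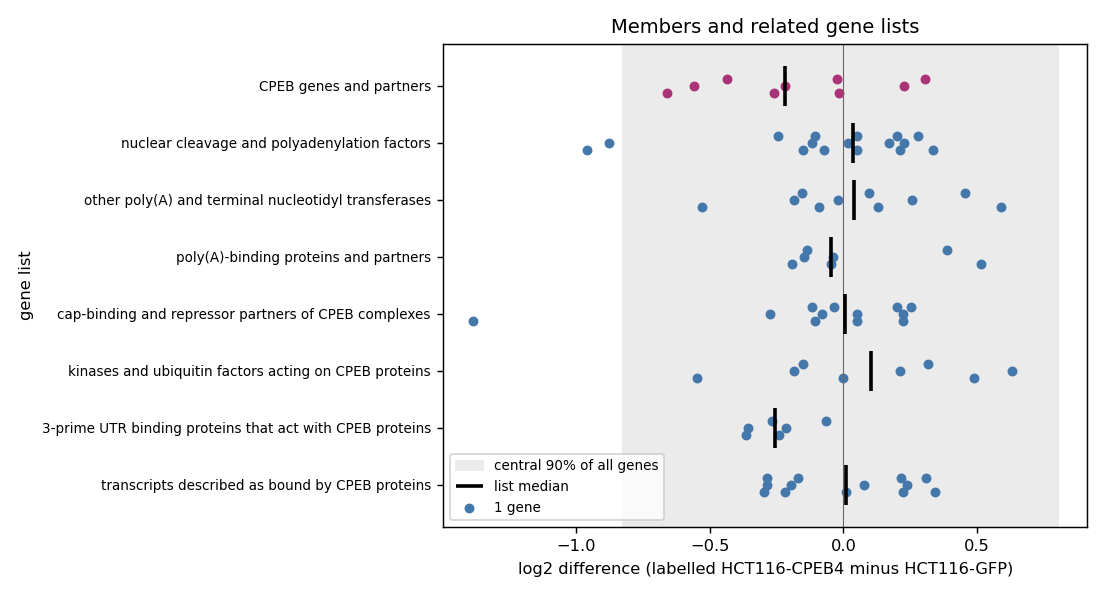
Log2 difference (array labelled HCT116-CPEB4 minus array labelled HCT116-GFP) of each measured gene (points) in the member list and 7 related lists, with list medians as black bars and the central 90% of all 13704 genes, from −0.82 to 0.80, shaded. The member median sits at −0.22, ZAR1 is the lone point below −1, and the 3′ untranslated region binding list has no point above 0.

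The start regions of the member genes were searched for short motifs in RefSeq promoter sequences (GRCh38.p14), each running from 250 bases before to 50 after a start. The table held 15 starts of 9 member genes. Their median GC content was 68.0%, against 58.7% over all 35116 starts. The pattern GAAA, any 2 bases, GAAA, a core of the interferon-stimulated response element, was in 0 of the 15 and in 3.57% of all starts, counting both strands. TATAAA was in 0 of the 15 and 11.5% of all.

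CCGGAAG, a core of sites for ETS-family transcription factors, was found on either strand in starts of CPEB4, TENT2, PARN and PAPOLA, 4 of the 15, and in 10.3% of all starts. The 3 matches that lie wholly before the start belong to CPEB4 and TENT2 and are shown because both genes read slightly lower on the array labelled HCT116-CPEB4. Capitals mark the motif or its reverse complement. They lie on the plus strand of GRCh38.p14 at chr5:173888298-173888327, chr5:173888245-173888274 and chr5:79612392-79612421, in the order given.
CPEB4, first match: ccctcttcgaaCCGGAAGtgtctctgggtc
CPEB4, second match: agatgattggtCTTCCGGcaggtaggtggg
TENT2: ggaggcggccaCCGGAAGtgtgacctttcg
PARN and PAPOLA, which hold the same letters in their starts, differed by −0.03 and −0.02. CPEB2 (−0.56), CPEB3 (−0.43) and CPSF1 (−0.66) read lower than CPEB4 and TENT2 and are not among the genes with a match. The filter partly fixed the value of CPSF1. Starts were held for 9 of the 10 members, so a gene without a match may only lack a start. Whether a match goes with a difference was not tested. A match is only a description of the letters in this window.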

How the data were processed

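Per probe set and array, the table deposited by the authors gives a linear intensity. The submitters' processing notes name Partek, with no version or role, and no source used here states the background correction, summarisation or scaling. Median intensities were 60.6 (HCT116-GFP) and 61.1 (HCT116-CPEB4), and 0 columns were left unused. Of 54675 probe sets, 41097 have 1 gene symbol, 1801 several and 11777 none in the platform annotation. Symbols were updated by Entrez identifier to RefSeq, with 41043 matched, so that PAPD4 became TENT2. Probe sets with several genes or none and 62 control probe sets were left out.

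Log2 was taken without a pseudocount in Python 3.11.15, with the dim filter and brightest probe set rule of the report. Named genes are all members, and in each list the genes past 2-fold and the 3 brightest. CSTF3, PABPN1, CDX2, MSI1 and DAZL are named besides. RBBP6, TUT7, PABPC1L, TOB2, PATL1, LSM14B, EIF4EBP2, NEURL1, BTRC and EGFR are named for the values of single probe sets. The members and lists were chosen with earlier results of these data known. The scripts were tested on simulated data. Loess used statsmodels 0.14.6.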

Additional observations from a re-analysis of the deposited data

How the results depend on the processing

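The count of member probe sets past 2-fold depended on the filter. Without a dim filter 1 was higher and 4 were lower, and with the 75th percentile filter (377 intensity units), or with both arrays at the 50th percentile, 0 were lower in place of 1. The median of the member genes ran from −0.25 to −0.03 and CPEB4 from −0.25 to −0.21 over the deposited values and 9 alternatives: quantile, loess and median scaling, a pseudocount of 16, 3 other filters, the mean over probe sets, and removal of probe sets ending in _s_at, _x_at or _a_at. Alternatives that moved a log2 value by less than the usual gap between probe sets, 0.27, were taken as unchanged. That limit is larger than the differences of CPEB4, TENT2 and EIF4ENIF1 and than the member median, so it cannot show that these held. The marker VIL1 stood at 1.26 and at −2.17 with the mean over probe sets. Which probe set is read is thus part of that value. No paired analysis was possible because each group has 1 array, and no replicate could be left out. With 2 arrays, precision is limited by their number, and below the filter by the dim signal.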
